A study of Mus musculus with 2 samples.

Results

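Accessible chromatin at the promoters of protein-coding genes was described in the wildtype mouse embryonic heart at E11.5, from ATAC-seq, an assay in which the transposase Tn5 inserts sequencing adapters into open DNA. A promoter region was a piece of a replicate 1 peak that a replicate 2 peak also covered, by at least 1 bp, and that had an edge within 1000 bp of any transcript start of a protein-coding gene. By this rule 20178 of the 96639 autosomal regions shared by both replicates (20.9%) were promoter regions, and the other 76461 shared regions served as the comparison. With peaks limited to a q value of 1e-10 in both replicates the share was 33.9%. Both replicates came from FVB embryos of wildtype genotype at 49 to 51 somites, with 2 hearts in each and no treatment. They form 1 group, so no test between conditions was possible and values are given for both replicates side by side. The hearts were used whole, so a promoter open in fewer cells and a promoter less open in each cell cannot be told apart.

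A promoter is the DNA at and just before a transcript start, where general transcription factors and RNA polymerase II assemble. Active promoters are kept free of nucleosomes and are therefore cut readily by Tn5. In mammals many promoters, above all those of genes used in every cell, lie in CpG islands, which are stretches rich in the dinucleotide CpG that mostly stay unmethylated. Promoters of genes used in a single tissue more often lack an island and can carry a TATA box. Sequence motifs common in promoters include the GC box bound by SP1, the CCAAT box bound by NF-Y, and the sites of ETS factors and NRF1.

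Sequences are shown for the 3 tallest promoter regions and for cardiac promoters with few and with many CpGs, since CpG content separated the promoters most clearly below. All are from the RefSeq copy of the GRCm38 (mm10) reference, which is not the FVB strain, and read 5′ to 3′ along the strand of the named gene. Capitals mark matches to any of 14 short motifs that are spelled out further on. The tallest were those of *Ripk2*, a kinase of innate immune signalling (chr4:16163775-16163975, minus strand), *Hmgcs1*, an enzyme of cholesterol synthesis (chr13:119690101-119690301, plus strand), and *Chchd7*, a mitochondrial protein gene (chr4:3938620-3938820, plus strand). Each window holds 100 bp on each side of the replicate 1 summit, the position of the highest read pileup. No annotated exon of a protein-coding gene lies in these windows.
Ripk2: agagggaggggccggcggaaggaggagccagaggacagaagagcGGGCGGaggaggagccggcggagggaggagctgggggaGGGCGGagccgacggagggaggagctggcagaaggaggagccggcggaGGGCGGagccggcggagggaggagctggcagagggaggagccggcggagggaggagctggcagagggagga
Hmgcs1: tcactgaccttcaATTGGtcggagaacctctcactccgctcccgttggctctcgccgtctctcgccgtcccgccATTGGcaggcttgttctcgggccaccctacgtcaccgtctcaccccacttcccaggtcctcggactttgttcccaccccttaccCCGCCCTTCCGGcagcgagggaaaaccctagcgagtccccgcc
Chchd7: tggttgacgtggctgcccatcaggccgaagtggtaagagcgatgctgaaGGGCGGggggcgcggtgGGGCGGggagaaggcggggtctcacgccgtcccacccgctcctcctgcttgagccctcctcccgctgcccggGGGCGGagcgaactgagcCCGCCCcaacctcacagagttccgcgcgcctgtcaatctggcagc
The *Ripk2* window held 3 GC box matches, the *Chchd7* window held 4, and the *Hmgcs1* window held 2 CCAAT boxes, 1 GC box and 1 ETS match. They carried 16, 19 and 17 CpGs in the same order.

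The windows at *Tnnt2* (cardiac troponin T, chr1:135836091-135836291, plus strand), *Actc1* (cardiac alpha-actin, chr2:114052894-114053094, minus strand) and *Nppa* (atrial natriuretic peptide, chr4:148000293-148000493, plus strand) were drawn around the replicate 1 summit in the same way and stand for CpG-poor cardiac promoters.
Tnnt2: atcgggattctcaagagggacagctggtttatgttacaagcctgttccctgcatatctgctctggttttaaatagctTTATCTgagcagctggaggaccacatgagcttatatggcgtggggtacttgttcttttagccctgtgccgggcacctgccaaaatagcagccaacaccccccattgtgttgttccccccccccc
Actc1: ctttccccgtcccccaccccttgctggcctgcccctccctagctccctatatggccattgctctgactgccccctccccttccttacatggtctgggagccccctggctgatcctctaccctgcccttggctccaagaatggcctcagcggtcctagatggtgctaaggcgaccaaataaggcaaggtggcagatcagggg
Nppa: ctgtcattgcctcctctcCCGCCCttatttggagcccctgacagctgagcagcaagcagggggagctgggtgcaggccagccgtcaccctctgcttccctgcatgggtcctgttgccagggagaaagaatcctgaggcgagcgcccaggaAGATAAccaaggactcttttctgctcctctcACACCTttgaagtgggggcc
These windows held 3, 3 and 4 CpGs. The *Tnnt2* window had 1 GATA match and the *Nppa* window 1 GATA, 1 T-box and 1 GC box match, whereas none of the 14 motifs matched in the *Actc1* window.

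For the CpG-rich promoters of *Hand2*, a transcription factor of the right ventricle (chr8:57320783-57320982, plus strand), and *Wt1*, a transcription factor of the epicardium (chr2:105126329-105126528, plus strand), the 200 bases just before the start are shown, because their replicate 1 summits lay inside the transcribed sequence.
Hand2: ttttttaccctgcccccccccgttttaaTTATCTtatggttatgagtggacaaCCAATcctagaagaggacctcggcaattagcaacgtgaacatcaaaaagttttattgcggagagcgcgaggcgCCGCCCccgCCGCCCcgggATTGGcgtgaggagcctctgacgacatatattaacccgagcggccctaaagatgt
Wt1: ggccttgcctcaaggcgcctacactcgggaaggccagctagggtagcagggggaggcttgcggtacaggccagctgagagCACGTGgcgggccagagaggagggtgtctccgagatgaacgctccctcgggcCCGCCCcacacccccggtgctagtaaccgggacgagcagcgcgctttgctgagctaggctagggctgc
They held 15 and 14 CpGs. The *Hand2* sequence had 2 CCAAT boxes, 2 GC boxes and 1 GATA match, and the *Wt1* sequence had 1 GC box and 1 E-box.

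Promoter regions were taller and longer than the other autosomal shared regions. Height was the fold enrichment at the summit, the pileup of reads over the background of the library. At promoter regions the median was 15.8 (replicate 1) and 16.1 (replicate 2), while the other shared regions had 5.98 and 5.28. On the mean of both replicates per region the ratio of the medians was 2.80, and the gap between the sets was far wider than that between replicates. The median promoter region was 987 bp long and the median of the others 351 bp, a ratio of 2.81. The values step by whole reads, from which backgrounds of 2.68 and 2.98 reads were recovered. The median promoter summit therefore rested on 57 and 63 reads, with a counting error alone of 13.2% and 12.6%, and the median of the other regions rested on 21 and 20 reads.

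**Figure D1:**
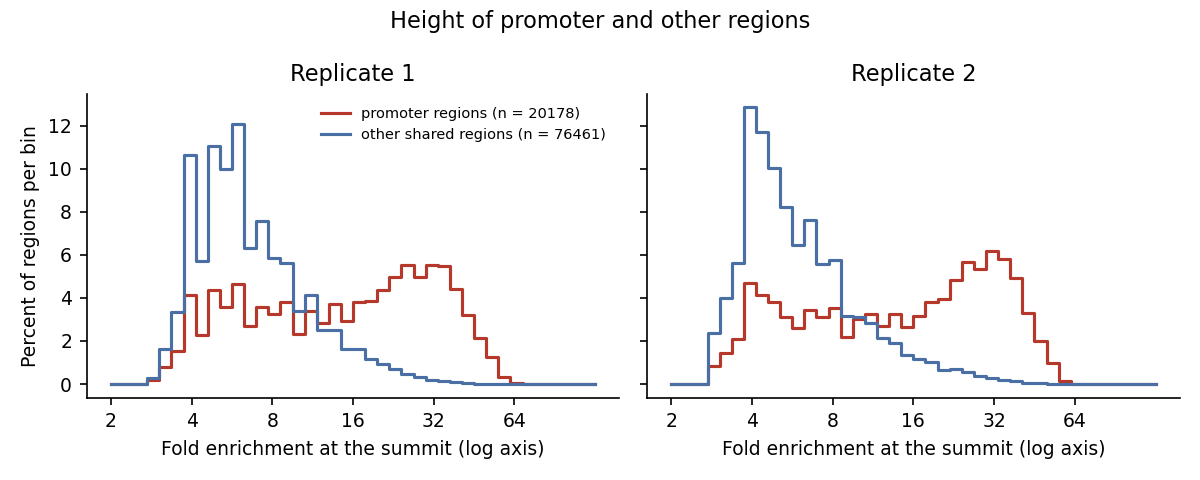
Percent of regions per bin of fold enrichment at the summit (log axis), for promoter regions and other shared regions in each replicate. Promoter regions spread widely around medians of 15.8 and 16.1, while the other regions crowd at low values around 5.98 and 5.28.

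Height alone sorted promoters from other sites to a large degree. All of the 100 tallest shared regions were promoter regions, as were 972 of the tallest 1000 and 8205 of the tallest 10000. By mean fold enrichment, promoter regions made up 7.74% of shared regions below 5, 31.3% from 10 to 20, 71.5% from 20 to 30, and 96.8% at 40 or more. Among the longest 1000 shared regions 915 were at promoters. In replicate 1, 41.7% of the promoter regions reached a fold enrichment of 20, against 2.78% of the others, and in replicate 2 the shares were 42.6% and 2.91%. Length and height rose together in both sets, with Spearman's rho across regions of 0.787 at promoters and 0.770 elsewhere, a description only, since both values come from the same pileup.

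The tallest promoter region lay at *Ripk2* (chr4:16162706-16164770), where it reached 74.2 (replicate 1) and 69.1 (replicate 2), or 272 and 274 reads. *Hmgcs1* followed with 68.4 and 63.6, and *Chchd7*, whose region also reached a start of the transcription factor gene *Plag1*, with 64.1 and 61.6. The next were *Sp4* (a factor that binds GC boxes), *Chml* (a Rab escort protein, in a region shared with *Opn3*), *Osbp* (an oxysterol-binding protein), *Ppp2r1a* (a scaffold of phosphatase 2A), *Nmt2* (an N-myristoyltransferase), *Tomm40* (the channel of mitochondrial protein import) and *Khsrp* (an RNA-binding protein). Their mean fold enrichment ran from 62.0 at *Sp4* to 60.1 at *Khsrp*, so that from *Sp4* on neighbours in this order differed by less than the replicates did at any of them. All of these 10 regions were CpG-rich, and none belonged to a gene known chiefly from the heart.

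The longest regions had another makeup. The region of 17297 bp nearest to *Rbm38* (chr2:173021566-173038862) had a fold enrichment of 43.2 and 43.7, but its summits lay 15276 and 15282 bp from the nearest start, in CpG-poor sequence. The next were at *Pcdh7* (a protocadherin, 8503 bp), *Irs2* (an adaptor of the insulin receptor, 6952 bp), *Actc1* (6786 bp) and *Midn* (midnolin, 6479 bp). The long *Actc1* piece began 530 bp from the start and belonged to the same replicate 1 peak as the promoter itself. It therefore carried the height of the promoter summit, 25.8, in replicate 1, and 12.1 from a summit of its own in replicate 2.

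Summits of promoter regions were most frequent close to the transcript start. The rule keeps regions near a start, so part of this nearness is set by the rule. With a limit of 500 bp 58.4% of summits lay within 100 bp of a start, and with 2000 bp 42.6%. The summit lay within 100 bp of a protein-coding start in 51.4% of promoter regions in replicate 1 and 51.5% in replicate 2, within 50 bp in 32.3% in both, and within 500 bp in 79.8% and 80.6%. The fullest bin was that from 0 to 50 bp downstream, with 3378 and 3460 summits. The median signed distance was -5 and -4 bp, with quartiles of -107 and 80 bp in replicate 1 and -107 and 81 bp in replicate 2. Regions with a summit within 100 bp of a start had a median fold enrichment of 22.5 and 22.6, and the remaining promoter regions 8.96 and 8.80. The highest medians stood just upstream, from -150 to -100 bp, at 25.0 and 25.1, and they were lower on the downstream side, at 14.5 and 15.3 from 100 to 150 bp.

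**Figure D2:**
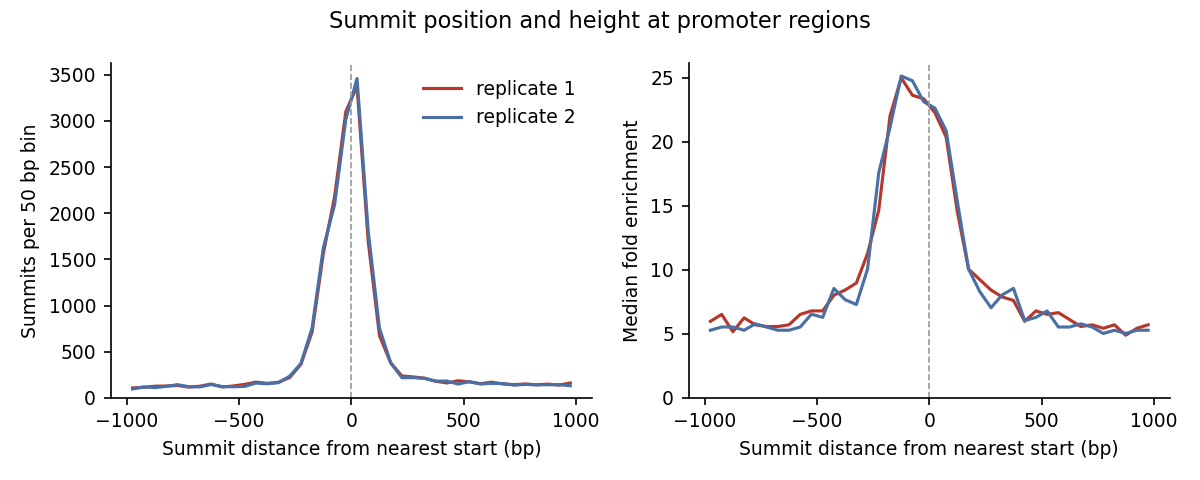
Number of promoter region summits per 50 bp bin (left) and their median fold enrichment (right) by distance of the summit from the nearest protein-coding start, negative upstream, in both replicates. Summit numbers peak at 3378 and 3460 just past the start, while the tallest summits lie slightly upstream of it.

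Regions that covered a start differed from those beside one. Of all promoter regions, 14639 (72.5%) covered a start, with a median fold enrichment of 22.0 and 21.9 and a median length of 1273 bp. The 5539 regions that lay beside a start without covering it had medians of 5.70 and 5.53 and a length of 332 bp, close to those of the other shared regions. Their upper range was higher, with 6.77% and 10.5% at a fold enrichment of 20 or more, against 2.78% and 2.91% of the other shared regions. At the limit of the rule no step was seen. The 576 regions in the last 100 bp inside it had a median of 6.25 and 6.28, and the 508 regions in the first 100 bp outside had 5.70 and 5.28.

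Promoter peaks were found again in the second replicate more often than other peaks. Of the autosomal replicate 1 peaks within reach of a start, 92.8% overlapped a replicate 2 peak, against 78.3% elsewhere, and in the other direction the shares were 92.1% and 80.7%. Averaged over both directions promoter peaks exceeded the others by 13.0 percentage points. Among the shallower peaks, those with a −log10 q value below 10, 71.5% were found again at promoters in both directions, against 63.9% (replicate 1 peaks) and 70.4% (replicate 2 peaks) elsewhere.

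Within the shared regions the replicates ranked promoters alike. Across the promoter regions Spearman's rho between replicates was 0.847, and across the others 0.714, both given as descriptions over regions. At 88.1% of promoter regions and 84.5% of the others the fold enrichments were within 1.5 times of each other. Where both summits lay inside the region, they were 30 bp apart at the median promoter and 42 bp elsewhere, and 0.185% of such promoter regions differed by more than 2 times, against 0.762% of the others. Over all regions the order was the other way, with 6.80% of promoter regions and 3.52% of the others differing by more than 2 times. Both summits were inside in 17795 promoter regions (88.2%). Where a summit lay outside the region, 56.2% of promoter regions and 23.5% of the others differed by more than 2 times. Pieces of 1 long peak carry the same height, and 1938 promoter regions shared their replicate 1 peak with another region.

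Promoter regions covered most protein-coding genes. At least 1 region lay within 1000 bp of a start of 14309 of the 20807 autosomal protein-coding genes (68.8%). Stretches where peak numbers in either list skip were not analysed here, and without the 1156 genes that have a start there the count was 14135 of 19651 genes, a background of 71.9% against which the gene groups below are read. Among the 5516 genes left without a region, 434 had a peak in a single replicate or peaks that did not overlap. Of the genes with a region, 9559 had 1, 3067 had 2 and 1683 had 3 or more, the latter with a median of 7 annotated starts against 4 for genes with 1 region. The most were 13, at *Frmd4b* and *Rbpms*. In turn 1667 regions were within reach of 2 or more genes, and their median of the mean fold enrichment was 27.5, against 14.8 for regions within reach of 1 gene.

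CpG content at the start separated genes with a region from those without. The measure was the number of CpGs over that expected from the base composition (observed/expected), in 1000 bp centred on the outermost start of each gene. Of 9435 CpG-rich genes analysed (0.6 or more), 9228 had a region, a background of 97.8%. Of 2758 intermediate genes 87.3% had one, and of 7458 CpG-poor genes (below 0.4) 2500 had one, a background of 33.5%. The gap between rich and poor genes was 64.3 percentage points, and 63.9 over all 20807 genes. The share rose at each step of 0.1, from 10.6% of 1436 genes below 0.1 to 99.7% of 383 genes at 1 or more.

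Where a region was present, CpG-rich promoters were also taller. The tallest region of each gene analysed had a median fold enrichment of 28.2 and 28.4 at CpG-rich genes, 19.0 and 18.9 at intermediate ones, and 12.8 and 11.6 at CpG-poor ones. The median lengths were 1500, 1126 and 822.5 bp. The TATA box, TATAAA on the sense strand between 40 and 16 bp upstream of the outermost start, ran the other way. It was present at 0.753% of CpG-rich and 5.03% of CpG-poor genes, and among the CpG-poor genes at 2.44% of those with a region and 6.33% of those without.

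**Figure D3:**
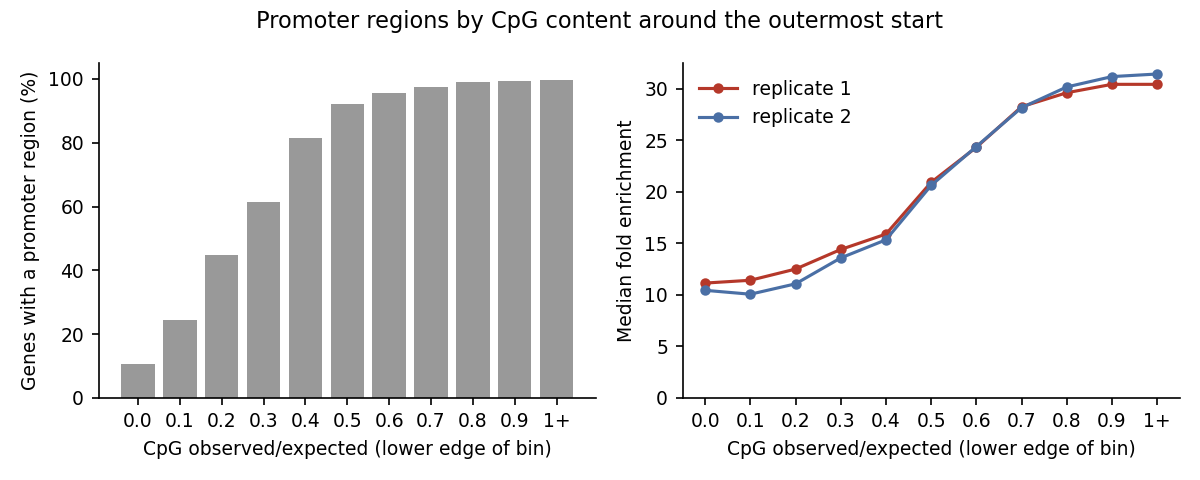
Percent of protein-coding genes with a promoter region (left, bars from 0) and median fold enrichment of the tallest region per gene in both replicates (right), by CpG observed/expected in 1000 bp around the outermost start. The share climbs from 10.6% to 99.7%, and the medians from 11.1 and 10.4 in the lowest bin to 30.4 and 31.4 in the highest.

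The same held when content was measured around the summit of each region. By this measure 10391 promoter regions (51.5%) were CpG-rich, against 2.04% of the other shared regions, and the median observed/expected was 0.614 against 0.213. The 10391 CpG-rich promoter regions had a median fold enrichment of 26.1 and 25.9, whereas the 1561 other regions that were CpG-rich had 10.9 and 8.30. The 6285 CpG-poor promoter regions had 6.52 and 6.54, near the 5.98 and 5.28 of the 69739 CpG-poor regions elsewhere. Tall exceptions were *Uggt2*, a sensor of glycoprotein folding, with 48.9 and 44.2, and *Zkscan5*, a zinc finger gene, with 47.8 and 44.7.

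Motifs were counted on both strands in the 100 bp on each side of the replicate 1 summit. The GC box was searched as GGGCGG and the CCAAT box by its own letters. Sites of ETS factors were searched as CCGGAAG, those of NRF1, a regulator of mitochondrial genes, as GCGCATGC, and those of CREB proteins (CRE) as TGACGTCA. The letters for YY1, a factor found at many promoters, were AAGATGG, those for the TATA box were TATAAA, and those for the E-box of MYC-type factors were CACGTG. For the tissue factors, GATA was searched as AGATAA, MEF2 of muscle as TAAAAATA, TEAD of Hippo signalling as CATTCC, T-box factors as AGGTGT, and AP-1 of stimulated cells as TGANTCA. The core bound by the insulator protein CTCF was searched as CCACNAGG. No motif held another whole, though neighbouring matches could overlap, as the GC box and the ETS match did at *Hmgcs1*. A match is a description of the letters and not of bound protein.

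At least 1 GC box was found in 45.6% of promoter regions and 7.47% of the others, an ETS match in 8.42% and 1.46%, an NRF1 match in 2.36% and 0.422%, and a CRE match in 1.76% and 0.348%. The motifs of cardiac and other tissue factors were less common at promoters. GATA matched in 6.42% against 19.99%, TEAD in 8.78% against 16.3%, MEF2 in 0.991% against 3.29% and AP-1 in 4.11% against 9.56%. The median GC content in 1000 bp around the summit was 57.0% at promoter regions and 46.2% elsewhere, and its part in these shares was not tested beyond the split by CpG class.

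Within a CpG class the differences went both ways in size. The GC box was found in 66.5% of CpG-rich promoter regions and 48.4% of the CpG-rich regions elsewhere, and ETS in 13.0% and 6.60%. Among CpG-poor regions GATA matched in 15.6% at promoters and 20.9% elsewhere, and TEAD in 14.4% and 16.8%. For these 4 motifs the gaps were smaller than over all regions. The CCAAT box had a wider gap among CpG-rich regions, with 26.9% at promoters and 19.4% elsewhere, as had YY1 with 4.22% and 2.24%. The T-box match changed direction among CpG-poor regions, with 10.06% at promoters and 9.17% elsewhere. Starts of the 5516 genes without a region, searched in the same window around the outermost start, held a TATA box in 17.9% and a GC box in 8.56%.

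The CCAAT box went with taller promoters in the CpG-rich class. It was found in 24.8% of promoter regions and 20.2% of the others. Among CpG-rich promoter regions, however, those with a match had medians of 33.4 (replicate 1) and 32.3 (replicate 2), and those without had 23.6 and 23.9. Taken as a difference of medians, this was the widest gap of the 14 motifs in this class in both replicates. In replicate 1 MEF2 came close in the opposite direction, with 16.4 in 26 regions with a match and 26.1 without. The CCAAT gap was not particular to promoters or general among them. CpG-rich regions elsewhere had 16.3 and 9.80 with a match and 10.3 and 8.04 without, and CpG-poor promoter regions had 6.79 and 6.79 with and 6.52 and 6.54 without. Over all promoter regions the GC box had the wider gap, with 24.4 and 23.9 against 9.24 and 9.80, where the CCAAT box had 23.4 and 22.9 against 14.1 and 14.1. The medians rose with the number of matches, from 30.2 and 29.7 in 1791 regions with 1 match to 36.9 and 35.4 in 667 regions with 2 and 40.7 and 39.3 in 338 regions with 3 or more. The GC content of the windows fell along this order, from a median of 70.1% without a match to 60.2% with 3 or more. Their median length rose, from 1375 bp without a match to 1620.5 bp with 3 or more. At a GC content from 60 to 70% the 1302 regions with a match had 33.7 and 32.7 and the rest 24.2 and 24.4. The part of GC content and length in these heights was not tested. For the GC box in the same class the medians were 27.7 and 27.4 with and 22.8 and 22.9 without. Along the genes with a region, CCAAT was most frequent from 80 to 60 bp upstream of the outermost start, at 6.70 matches per 100 genes, against 5.20 in the genes without a region, whose own highest value was 6.11 from 100 to 80 bp upstream. From 100 to 120 bp downstream the values were 1.55 and 3.08.

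**Figure D4:**
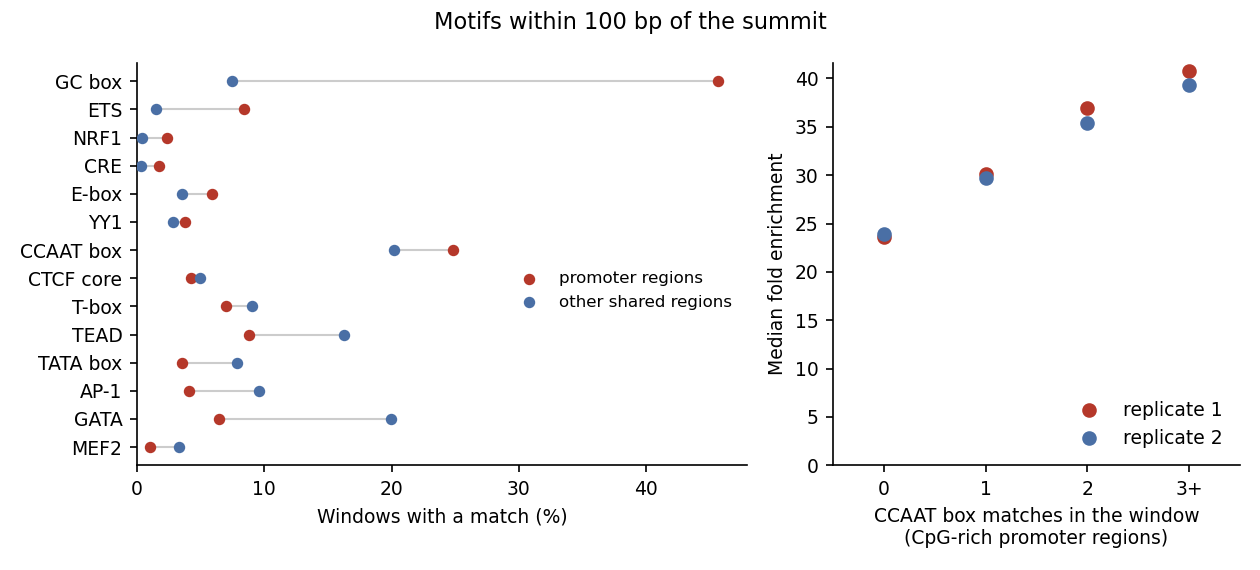
Left, percent of windows with a match to each of 14 motifs at promoter regions and other shared regions. Right, median fold enrichment of CpG-rich promoter regions by the number of CCAAT box matches in both replicates, rising from 23.6 and 23.9 to 40.7 and 39.3.

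Genes that mark the cells of the heart had accessible promoters almost without exception. Of the 22 genes of the cardiomyocyte sarcomere all had a region, as had all 25 cardiac transcription factor genes, all 20 endocardial and endothelial genes and 11 of 12 epicardial genes, read against the 71.9% of all genes. Of the cardiac transcription factor genes 19 are CpG-rich, a class in which 97.8% of all genes had a region, so that most of their count is near the share of that class. Among their CpG-poor members the counts were 16 of 16, 3 of 3, 9 of 9 and 4 of 5, against 33.5% of CpG-poor genes at large. CpG-poor members of other lists also lay above that share, with 10 of 15 for blood, 7 of 11 skeletal myogenic and 3 of 4 neural genes, while those for liver (2 of 15), epidermis (3 of 15) and germ cells (0 of 9) lay below it. CpG-rich members with a region were 5 of 8 neural, 2 of 5 germ cell and 1 of 2 skeletal myogenic genes, against 97.8% of CpG-rich genes. The class is that of the outermost start, while a region at any start counts, as at the inner start of *Pecam1*. Of 21 housekeeping genes analysed, all had a region. The lists for other tissues were lower, with 11 of 16 genes for blood, 11 of 16 neural, 9 of 16 skeletal myogenic, 3 of 15 epidermal, 3 of 16 germ cell and 2 of 15 liver genes. The lists are small and were not tested, and for genes with a close neighbour the region may be that of the neighbour, which is named below.

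The heart lists were not the tallest. The median of the tallest region per gene was 30.7 and 29.2 in the housekeeping list and 24.4 and 24.6 over all 14135 genes. It was 24.2 and 19.9 for the cardiac transcription factors, 17.7 and 15.3 for the sarcomere, 11.54 and 9.43 for the endocardium and endothelium, and 9.78 and 8.30 for the epicardium. Most heart lists were somewhat higher in replicate 1, and so were some lists of other tissues. The median log2 ratio of replicate 1 over replicate 2 was 0.24 for the sarcomere (18 of 22 genes higher in replicate 1), 0.18 for the cardiac transcription factors (20 of 25), 0.27 for the endocardium and endothelium (15 of 20) and 0.11 for the epicardium (9 of 11). It was 0.33 for the skeletal myogenic list, 0.14 for the neural list (8 of 11) and 0.24 for olfactory receptor genes (12 of 17), so the shift was not particular to heart genes. It was 0.03 over all genes, -0.03 for housekeeping genes and -0.05 for blood genes. Over all promoter regions the median was 0.16 at a mean fold enrichment from 5 to 10, 0.06 from 10 to 20, -0.01 from 20 to 30 and 0.01 from 30 to 40, and the heart lists together hold genes in each of these ranges. Whether the cell makeup of the hearts differed between the replicates was not tested.

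**Figure D5:**
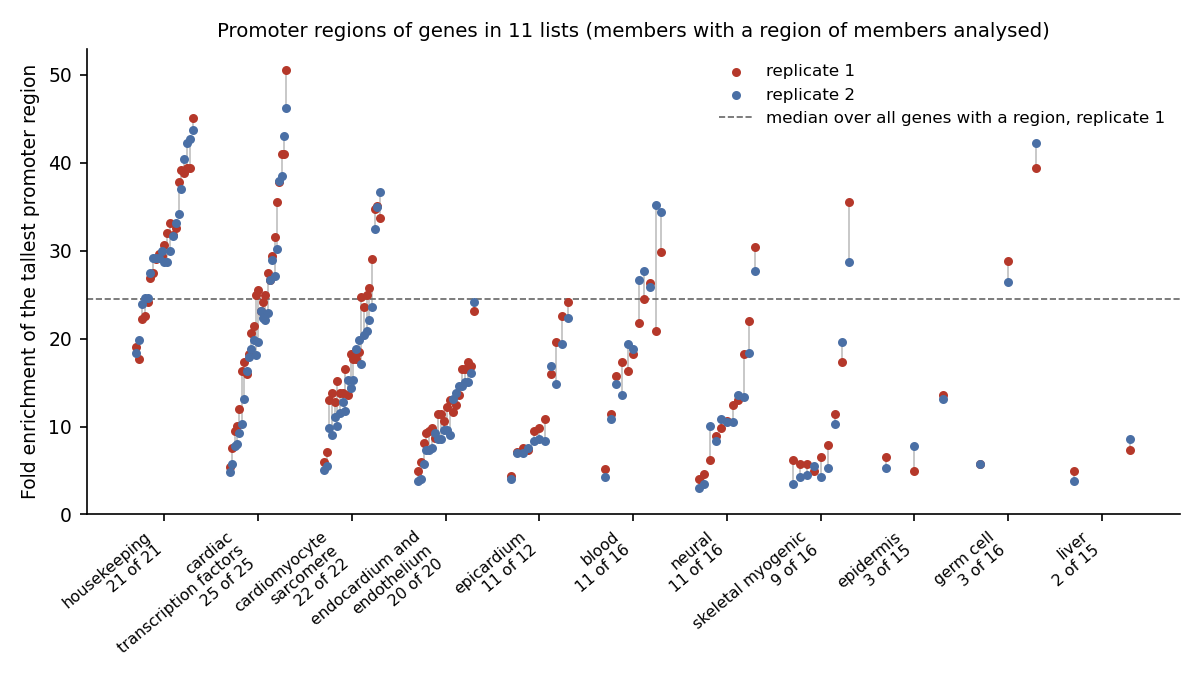
Fold enrichment of the tallest promoter region of each listed gene in both replicates (points joined by a line), with members that have a region of members analysed under each list and the replicate 1 median over all genes (24.4) as a dashed line. Heart lists are complete or nearly so but mostly lie below the line, and housekeeping genes lie mostly above it.

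In the sarcomere list, *Myl4* (atrial essential light chain) had 33.7 and 36.7 and *Myom1* (myomesin) 34.8 and 32.4, but these regions were nearest to starts of the neighbours *Cdc27* and *Myl12b*. *Tpm1* (tropomyosin) had 35.04 and 34.9 on its own start. The lowest were *Tcap* (telethonin), with 7.06 and 5.53, and *Myom2*, with 5.98 and 5.03 and a summit 887 bp from the nearest start. In 18 of the 22 genes the start nearest to the region was their own.

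*Tnnt2* showed the form of a cardiac promoter without a CpG island. Its region (chr1:135835557-135836594) covered the start, with 25.0 and 20.9 and summits at -163 and -142 bp from it, at an observed/expected of 0.133. *Actc1* had 25.8 and 22.1 at its start (chr2:114052547-114053564). *Myh6*, the alpha myosin heavy chain, had 13.9 and 12.8 (chr14:54966317-54967625), or 50 reads in either replicate, with an observed/expected of 0.1003. *Nppa* had 17.9 and 14.8 (chr4:147999966-148001165), with both summits at -329 bp. All of these exceeded the median of CpG-poor genes with a region, 12.8 and 11.6, in both replicates. Not every CpG-poor sarcomere gene did, as *Ttn* had 15.2 and 10.06, *Myl2* 13.0 and 9.80 and *Myoz2* 13.9 and 9.05.

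Among cardiac transcription factors the tallest were *Hey2* with 50.5 and 46.3, *Hey1* with 41.02 and 43.0, both Notch targets, and *Srf*, the factor that binds CArG boxes, with 41.02 and 38.5. The lowest were *Irx4*, a ventricular homeobox gene, with 7.61 and 5.78, and *Tbx5*. *Tbx5*, a T-box factor of the atria and left ventricle, had 5.43 and 4.78 at its taller region (chr5:119835070-119835519), or 19 and 18 reads, with summits 603 and 456 bp past a start. *Nkx2-5*, the early cardiac homeobox gene, had 11.95 and 9.30 at an inner start (chr17:26841289-26841872), and a second region 5.98 and 3.52. *Gata4*, a zinc finger factor of cardiac progenitors, was taller at an inner start (chr14:63244990-63246556), with 16.03 and 16.3, than at its outermost start (chr14:63271406-63272048), with 8.42 and 6.79. *Hand2* had a region of 5184 bp (chr8:57319158-57324341) with 25.0 and 22.1, and summits at 42 and -5 bp from the start.

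*Shox2*, the homeobox gene of the sinus venosus, had 2 regions. The one on an inner *Shox2* start (chr3:66978447-66979452) had 5.70 and 6.03. The taller one (chr3:66980426-66982988), with 18.2 and 17.8, covered the outermost *Shox2* start (position 66981771). This taller region was also within reach of *Rsrc1*, whose start was nearest to its summits, at -29 and -3 bp.

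Of the endocardial and endothelial genes, *Vwf* (von Willebrand factor) was highest with 23.1 and 24.1, but its replicate 1 summit lay at -1150 bp from the nearest start. That start is an inner one, and the outermost start of *Vwf* is at position 125546774. *Kdr*, a VEGF receptor, had 16.8 and 16.1 and *Esam*, an adhesion molecule, 17.4 and 15.1. The lowest were *Eng* (endoglin), with 5.98 and 4.02, and *Pecam1* (chr11:106715116-106715326, 211 bp), an adhesion molecule of all endothelium, with 4.89 and 3.77, or 17 and 14 reads. The *Pecam1* region lay at an inner start, and the outermost start is at position 106750628. In the epicardial list *Tbx18* had 24.2 and 22.4, *Sema3d* 22.5 and 19.4 and *Lrrn4* 19.6 and 14.8, while *Rspo1* had 4.35 and 4.02 and *Aldh1a2*, which makes retinoic acid, 7.06 and 7.04. The *Lrrn4* summits lay 1164 and 1332 bp past the nearest start. No region was called at *Msln*, the mesothelial surface protein gene. *Wt1* had 16.03 and 16.8 at its start (chr2:105125997-105128049) and regions at inner starts as well, 1 of which (chr2:105162641-105163151) had 11.1 and 8.04.

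In the blood list the tallest regions were at genes of red cells, with *Hbb-y* (embryonic beta-globin) at 29.9 and 34.4, *Hba-x* (embryonic alpha-globin) at 20.9 and 35.2 and *Epb42* (a protein of the red cell membrane) at 26.3 and 25.9. *Hba-x* was thus higher in replicate 2 with a log2 ratio of replicate 1 over replicate 2 of -0.75, a larger gap than the 1.5 times within which 88.1% of promoter regions lay. *Hba-a2* had 11.4 and 10.8, with summits 1383 and 1545 bp past the nearest start. However, *Hba-a1* and *Hba-a2* are near-identical copies, as are the adult beta-globin genes, so that reads may not be assigned to 1 of them. *Spi1*, a factor of myeloid cells, was lowest with 5.16 and 4.27, and its summits lay 672 and 769 bp past the nearest start. No region was called at *Ptprc*, *Csf1r*, *Itgam* and *Cd3e*, genes of white cells, macrophages and T cells, and neither replicate had a peak there.

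Among neural genes *Map2* had 30.4 and 27.7, *Pax6* 22.0 and 18.4 and *Snap25* 18.2 and 13.3, whereas *Stmn2* had 4.62 and 3.52 and *Gad1* 4.07 and 3.02. The *Snap25* summits lay 784 and 741 bp past the nearest start. No region was called at *Neurog1*, *Neurod1*, *Elavl3* and *Rbfox3*, the first 3 of which are CpG-rich. At *Neurod1* and *Elavl3* a peak was listed in replicate 1 alone, and at *Rbfox3* in both but without overlap. In the skeletal list *Actn3* had 35.6 and 28.7 and *Ckm* 17.4 and 19.6, in regions nearest to starts of their neighbours *Zdhhc24* and *Klc3*. *Myf6* had 11.4 and 10.3, with summits 1224 and 1243 bp past the nearest start. *Mymk* had 6.25 and 3.52 and *Acta1*, skeletal alpha-actin that the embryonic heart also uses, 5.70 and 4.27. The *Mymk* summits lay 813 and 785 bp past the nearest start. *Myod1*, the master factor of skeletal muscle, had 4.89 and 5.53 (chr7:46376963-46377341), with summits 617 and 682 bp past the start. *Myog*, *Myf5* and the skeletal myosin genes *Myh1*, *Myh2*, *Myh3* and *Myh8* had no region.

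Liver, epidermal and germ cell genes were largely without regions. Of the liver list *Apob* had 7.33 and 8.55 and *Ttr* 4.89 and 3.77, and no region was called at *Alb*, *Afp*, *Apoa1*, *Fga* or *Serpina1a*. The *Apob* summits lay 862 and 873 bp past the nearest start. The outermost start of *Alb*, serum albumin (chr5, position 90460897), had an observed/expected of 0.319 and no peak in either replicate. Of the epidermal list *Krt10* had 13.6 and 13.1, *Krt1* 4.89 and 7.79 and *Trp63* 6.52 and 5.28, while *Krt5*, *Krt14*, *Tgm1*, *Tgm3*, *Dsg3* and *Flg* had none. Of the germ cell list *Gdf9*, an oocyte factor, had 39.4 and 42.2 in a region also within reach of *Uqcrq*, a subunit of mitochondrial complex III, *Dazl*, an RNA-binding protein, had 28.8 and 26.4, and *Spaca1* 5.70 and 5.78. The meiotic genes *Sycp1* and *Sycp3* and the germ cell helicase gene *Ddx4* had no region although their starts are CpG-rich, and *Prm1*, *Tnp1* and *Zp3* had none either. In all, 207 CpG-rich genes analysed had no region, 63 of which had a peak in 1 replicate or peaks without overlap.

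In the housekeeping list the tallest were *Snrpd3* (a spliceosome protein, in a region nearest to *Gucd1*) with 45.1 and 43.7, *Vcp* (an ATPase of protein quality control) with 39.4 and 42.7, and *Actb* (cytoplasmic actin) with 39.4 and 42.2. Even *Psmb4* (a proteasome subunit), at the low end of the list with 19.0 and 18.4, was above the sarcomere median in both replicates.

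Most of the gene families examined had a region at nearly all members or at few. A region was found at all 76 mitochondrial ribosomal protein genes and all 34 complex I subunit genes analysed, at 74 of 77 cytosolic ribosomal protein genes, at 34 of 36 proteasome genes and at 327 of 351 zinc finger genes named Zfp, with medians in replicate 1 from 23.9 (complex I) to 29.3 (proteasome). Many of these genes are CpG-rich, and 69 of 70 CpG-rich cytosolic ribosomal protein genes had a region, near the 97.8% of all CpG-rich genes. Cytochrome P450 family 2 lay between, with 8 of 25 genes and medians of 12.1 and 11.9. This family has 48 genes, and those not among the 25 have a start where peak numbers skip. Olfactory receptor genes had a region at 17 of 1040, vomeronasal receptor genes at 2 of 275, beta-defensins at 2 of 42 and keratins at 11 of 53. These receptor genes were CpG-poor in nearly all cases, and 16 of 1036 CpG-poor olfactory receptor genes had a region, against 33.5% of all CpG-poor genes. Members of such families have close copies, and the authors discarded poorly mapped reads, whose part in these counts was not tested.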

How the data were processed

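ATAC-seq peaks of 2 replicates (1 group, single-end reads) were used as deposited. Per the methods and the submitters' processing notes, the authors trimmed reads (Trim Galore 0.6.6, cutadapt), mapped them to GRCm38/mm10 (Bowtie2 2.4.2), removed duplicates and poorly mapped reads (SAMtools 1.12) and called peaks in each replicate with MACS2, shifting and extending reads and using no local background. The lists differ from the stated settings: their largest p values, 0.000476 and 0.00104, are below the stated limit, and no peak is shorter than 200 bp, which exceeds the stated extension, so the extension behind the recovered reads and the peak lengths is uncertain. In the deposited lists fold enrichment is a ratio at the summit, the authors' −log10 p and −log10 q values belong to that summit, and the deposited score restates the q value. The lists held 118027 and 114783 peaks, without read totals, so depth was known only through the background, found from whole-read steps in the fold values, which gave whole reads for 100% of values (tolerance 0.02 reads). Shared regions were intersected in Python 3.11.15 (NumPy 2.4.6, pandas 2.3.3), with starts from GENCODE M21 and sequence from the GRCm38 reference through pysam 0.24.0. All 6 functions checked on simulated peaks returned the known answers. Peak numbers skip 1726 and 1803 numbers, and the 1156 genes with a start between listed peaks whose numbers skip were not analysed here in gene lists. The members and lists were chosen with earlier results of these data known. Genes were named by rule: the 10 tallest and 5 longest regions, the 3 highest, 2 lowest and up to 6 uncalled members per list, and 14 cardiac and control genes. A few genes that this rule picks are not reported here. Tall CpG-poor regions, *Frmd4b*, *Rbpms* and the regions that differed most between replicates fall outside it and were named after their values were seen. No statistical test was made: the 1 group allows none between conditions, and contrasts within each of the 2 replicates are given as values. Alternatives varied the p and q limits, distance, overlap, starts, windows and replicates. Nothing in the labels says whether the replicates came from separate litters, so the spread between them may be partly technical.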

Additional observations from a re-analysis of the deposited data

Results flagged for a closer look

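Chromosome X was outside the rule for the regions above, and signal appeared there at promoters. By the same distance, 653 of 2211 shared regions on chromosome X were promoter regions (29.5%), at 511 of 948 protein-coding genes (53.9%). Their medians of fold enrichment were 16.03 (replicate 1) and 16.8 (replicate 2), against 5.98 and 5.28 at the other regions of this chromosome. The sex of the embryos is not given by the labels, and no comparison with the autosomes was tested.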

How the results depend on the processing

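Alternatives were run for the number, share, height, length, summit position, CpG gap and recovery of the promoter regions and for the motif shares, and not for the gene lists, families, TATA shares or heights by CpG class. Of 70 values recomputed beside the motif shares, 17 moved by less than the spread between the replicates (or, for the number of regions, stayed within 1.5 times), 53 moved further and 0 reversed. The number of promoter regions ran from 13911 (outermost starts) to 24648 (2000 bp). A q limit of 1e-10 changed the percent of shared regions at promoters to 33.9%, genes with a region to 63.7%, the height ratio to 2.41, the length ratio to 2.35, summits within 100 bp to 60.03%, the CpG gap to 68.8 points and the gap in being called in both to 15.4 points. A p limit of 1e-05 gave 21.7% of regions, 68.4% of genes, 52.3% of summits and a CpG gap of 64.4 points. At 500 bp the values were 17.9%, 67.5%, 3.24, 3.21, 58.4%, 66.1 and 15.5 in the order of the q limit, and at 2000 bp 25.5%, 70.6%, 2.23, 2.21, 42.6%, 60.3 and 10.3. With the outermost start of each gene only they were 14.4%, 64.6%, 3.66, 3.41, 47.2%, 72.5 and 15.8. A reciprocal overlap of 50% gave 67.5% of genes, ratios of 3.09 and 3.01 and 54.7% of summits. With a replicate left out (each list alone), the number of regions was 20831 to 20999, the percent of regions 18.2 to 18.6%, genes 69.9 to 70.1%, the height ratio 2.68 to 2.79, the length ratio 2.71 to 2.82, summits 47.9 to 48.7% and the CpG gap 61.9 to 62.6 points. A CpG window of 500 bp gave a gap of 63.0 points, and summits within 50 and 200 bp made up 32.3% and 68.3%. Chosen after seeing the data, leaving out genes where peak numbers skip gave 71.9% of genes, and only regions with both summits inside gave ratios of 3.02 and 2.97 and 54.3% of summits. With motif windows of 50 bp on each side, 7 of 14 motifs were again commoner at promoter regions, in the same order for all 14. The narrower windows hold fewer letters by construction, and the cause of the other shifts was not tested. No paired analysis was possible because there is 1 group and no result comes from a test. No alternative varied depth, and weak regions rested on few reads, as the 17 and 14 at *Pecam1*.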

Other observations

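The promoter regions that differed most between the replicates, among those with both summits inside, were all of low or middling height. Higher in replicate 1 were *Cmklr1* (chemerin receptor) with 13.6 against 4.53, *Egf* (epidermal growth factor) with 7.33 against 3.02, and *Popdc2* (a cAMP-binding membrane protein of striated muscle) with 8.15 against 3.52. Higher in replicate 2 were *Acp1* (a low molecular weight phosphatase) with 11.6 against 4.62, *Zer1* (a substrate receptor of an E3 ligase) with 13.3 against 5.70, and *Apol8* with 10.3 against 4.62. The values at *Cmklr1* rested on 49 and 17 reads and those at *Acp1* on 16 and 45. *Peg3*, an imprinted zinc finger gene whose region also reached *Usp29*, was among the 5 tallest CpG-poor promoter regions, with 43.7 and 40.7 and summits 1747 and 1622 bp past the nearest start.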
